A study of Homo sapiens with 15 samples.

Results

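The genes described are 37 cell adhesion molecules of TF-1 leukaemia cells. They comprise 16 integrin alpha chains, 7 integrin beta chains and 14 other surface proteins, namely cadherins, immunoglobulin-type and junction molecules, a selectin ligand and a leucine-rich repeat molecule. They were picked by gene name, as the integrin chains other than the platelet ones together with a set of cadherins and junction molecules. Earlier results of these data were known at that choice. Counts of members set beside the share of all genes are therefore a description. All 37 had a row among the 56624 gene symbols of the expression table, and 28 of them reached 1 TPM in at least 3 of 15 libraries and entered the tests. TPM is a transcript abundance scaled for transcript length and to a fixed library total.

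TF-1 is a human erythroleukaemia cell line that depends on cytokines such as GM-CSF. The series compared Parental TF-1 cells with isogenic lines into which a base editor, an enzyme that changes single bases without cutting both DNA strands, had introduced a mutation of IDH1 or IDH2. The 5 groups, of 3 libraries each, were Parental, IDH1R132H, IDH2R140Q, IDH2R140W and IDH2R172K. Parental cells received GM-CSF at 2 ng/ml in their medium, while the 4 edited lines were grown in its absence. Genotype and medium therefore cannot be told apart wherever Parental is compared. Comparisons among the 4 edited lines are free of that difference in medium. The labels do not say whether a line is 1 clone, nor whether replicate libraries stem from different cultures. The p-values then speak only for the variation among these 15 libraries, part of which may be technical.

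Integrins are paired receptors of an alpha and a beta chain that bind matrix proteins or counter-receptors on other cells, and the pairing decides the ligand. Cadherins bind their like on a neighbouring cell through calcium, while immunoglobulin-type molecules such as the ICAMs serve as integrin counter-receptors. On blood progenitors these molecules hold cells in the marrow niche and guide leukocytes through vessel walls. Mutant IDH enzymes make 2-hydroxyglutarate, a metabolite that inhibits DNA and histone demethylases.

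Libraries of a group correlated across genes with Pearson's r of 0.974 to 0.990. TPM keeps no read number, so sequencing depth is unknown and counting error cannot be stated. Of 9 progenitor markers, 6 reached 1 TPM in every group, CD34 among them, while GATA1, IL3RA and CSF2RA were listed at 0 in every group. A listed 0 is therefore given only as such. Parental replicate 2 and IDH2R140W replicate 3 stood apart. They held the lowest value of their group in 23 and 20 of the 28 tested members, and ribosomal protein genes took 19.3% and 20.2% of their TPM, where the remaining libraries of Parental and IDH2R140W had 15.4% to 16.9%. In both, longer transcripts read lower relative to the rest of the group, with Spearman's rho of -0.49 and -0.57 across 11323 genes, which are not independent replicates. The groups differed as well. In IDH1R132H, IDH2R140Q and IDH2R172K the ribosomal share was 12.71% to 14.15%, below every library of Parental and IDH2R140W. Symbols at 1 TPM or more numbered 13378 to 13792 in those lines, and 12796 to 13223 in Parental and IDH2R140W. The part of these differences in any result below was not tested. Each main count is given also without Parental replicate 2 and IDH2R140W replicate 3, which does not remove the difference between groups.

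**Figure D1:**
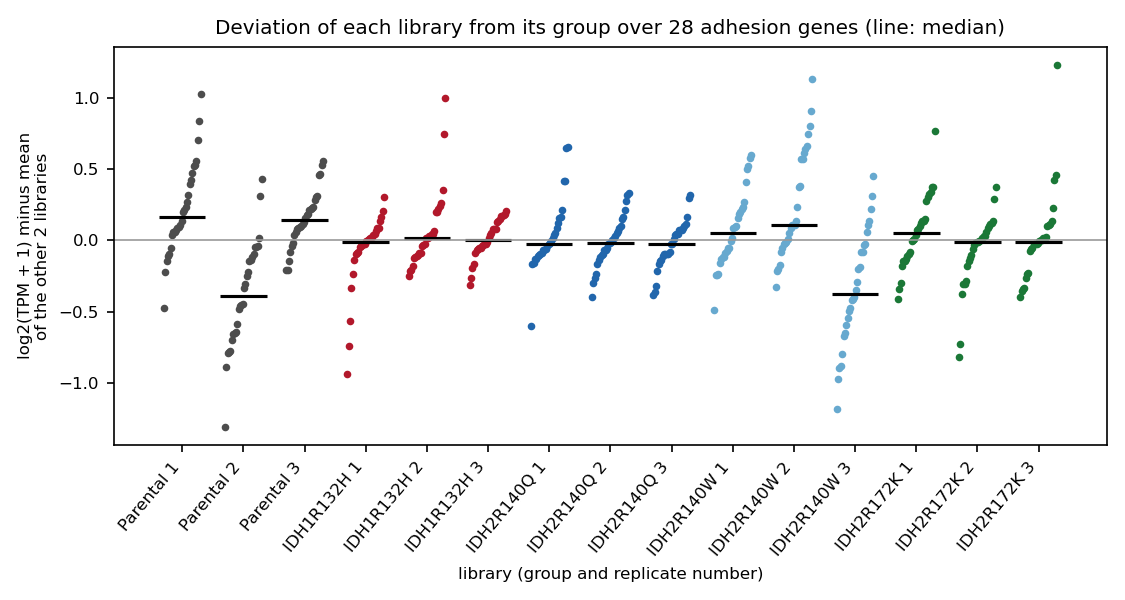
Deviation of each library from the mean of the other 2 libraries of its group, in log2(TPM + 1), for the 28 tested adhesion genes. Each point is a gene and the black line is the median. The medians of Parental replicate 2 and IDH2R140W replicate 3 lie at -0.39 and -0.37, and those of the other 13 libraries lie between -0.02 and 0.17.

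Expression was led by a few molecules in every group. ITGB1, the beta chain shared by most matrix-binding integrins, averaged 161 to 206 TPM, and ICAM2 and ICAM3, counter-receptors of the leukocyte integrins, averaged 118 to 205 TPM. ESAM, an endothelial and progenitor junction molecule, and PECAM1, which platelets, leukocytes and endothelium use for contacts among their own kind, averaged between 60 and 242 TPM. The number of members with a mean of at least 10 TPM was 14 in Parental and 20, 17, 13 and 15 in the edited lines in the order named. The 9 members that stayed out of the tests were ITGA1, ITGA10, ITGB6, ITGB8, CDH1, VCAM1, JAM3, ALCAM and NCAM1, none of which exceeded 0.64 TPM in a library, and ITGA10 and NCAM1 were listed at 0 throughout. CDH1, the epithelial E-cadherin, and VCAM1, the endothelial counter-receptor of ITGA4 integrins, were thus not detectable above these levels.

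**Figure D2:**
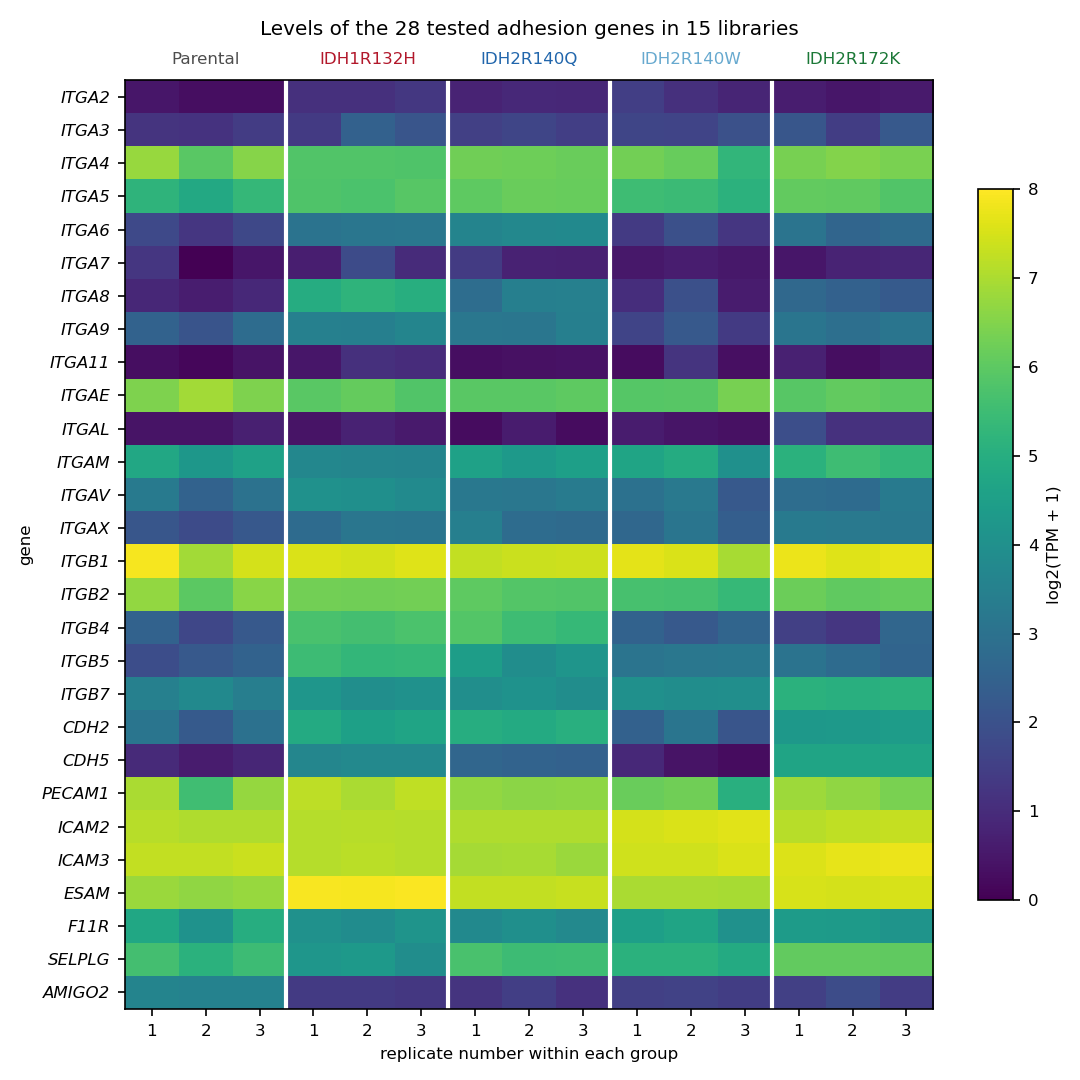
Levels of the 28 tested adhesion genes (rows) in the 15 libraries (columns, grouped by genotype), as log2(TPM + 1) by colour. ITGB1, ICAM2, ICAM3, ESAM and PECAM1 are bright in every group, ITGB4, ITGB5, ITGA8, CDH2 and CDH5 change between groups, and AMIGO2 is brighter in the 3 Parental libraries than in the other 12.

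Differences were tested with limma on log2(TPM + 1) over all 14881 genes that passed the filter, and a member counts as higher or lower where its Benjamini-Hochberg adjusted p was under 0.05 and the difference was at least 1 on that scale, which is 2-fold. This scale understates the change of genes at low level. In IDH1R132H, 8 of the 28 tested members were higher than in Parental and 2 lower, where 7.74% and 3.09% of all tested genes were. In IDH2R140Q, 6 were higher and 1 lower, against 7.56% and 2.47% of all genes. In IDH2R140W, 0 were higher and 1 was lower, against 2.68% and 2.1%. In IDH2R172K, 6 were higher and 1 lower, against 6.36% and 2.96%. The 4 comparisons share the Parental libraries and are not independent of each other.

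In the order IDH1R132H, IDH2R140Q, IDH2R140W and IDH2R172K, the median difference of the tested members was 0.63, 0.29, -0.03 and 0.49, while that of all tested genes was 0.16, 0.23, 0.03 and 0.13. Relative to the median gene, the members' median thus stood at 0.47, 0.06, -0.07 and 0.35. Averaged over the 4 edited lines, 6 members were higher and 1 lower than in Parental, against 3.98% and 1.63% of all genes. The higher ones were ITGA6, ITGA8, ITGB4, ITGB5, CDH2 and CDH5, and the lower one was AMIGO2. Without Parental replicate 2 and IDH2R140W replicate 3, the counts higher and lower were 7 and 3, 6 and 2, 0 and 1, and 6 and 1 in the same order. An exact test of 3 libraries against 3 cannot go below p = 0.10, so every adjusted p rests on a spread shared across genes and groups.

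**Figure D3:**
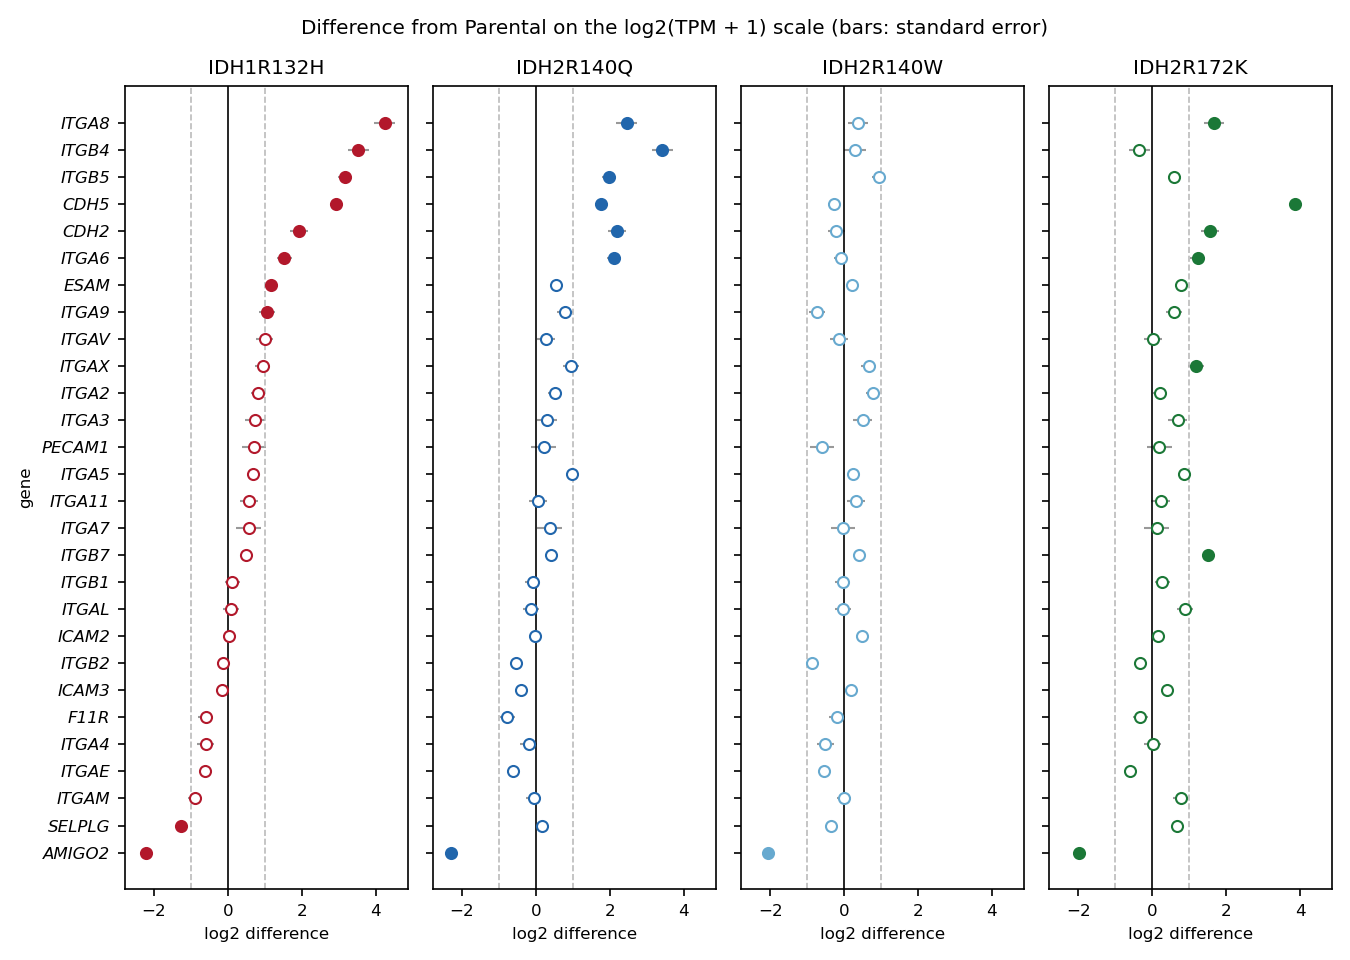
Difference of each tested adhesion gene from Parental in the 4 edited lines, on the log2(TPM + 1) scale, with its standard error (n = 3 libraries a group). Filled points passed the test, and dashed lines mark a 2-fold difference. Filled points number 10, 7, 1 and 7 from the left panel to the right, and AMIGO2 is the one filled in all 4 panels.

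Among the integrin beta chains, ITGB4 and ITGB5 were higher in IDH1R132H and IDH2R140Q, and ITGB7 was higher in IDH2R172K. ITGB4, the long-tailed chain that pairs with ITGA6 as a laminin receptor of epithelia, read 4.75, 2.28 and 3.66 TPM in the Parental libraries. It read 51.0, 47.8 and 52.3 TPM in IDH1R132H and 56.7, 44.5 and 40.1 TPM in IDH2R140Q. Values in IDH2R140W were 4.73, 3.70 and 5.06 TPM, and in IDH2R172K they were 1.88, 1.39 and 5.17 TPM. The libraries of IDH1R132H and IDH2R140Q lay far above all others, and those of IDH2R140W and IDH2R172K overlapped Parental. The log2 difference from Parental was 3.53 ± 0.29 (SE) in IDH1R132H, or 11.6-fold on this scale (limma adjusted p = 3.67e-07), and 3.42 ± 0.29 in IDH2R140Q (adjusted p = 6.27e-07). In bulk RNA, a change in the number of cells that express a gene cannot be told apart from a change in RNA per cell. Summed TPM of 7 epithelial markers was 624 to 667 in Parental, 787 to 796 in IDH1R132H and 534 to 560 in IDH2R140Q. It was 552 to 586 in IDH2R140W and 582 to 597 in IDH2R172K. Of the 7, KRT18, KRT8 and MUC1 reached 1 TPM in every group, with KRT18 the highest, while CLDN4 was listed at 0 throughout. KRT8 averaged 102, 137, 82.3, 90.6 and 103 TPM from Parental through IDH1R132H, IDH2R140Q and IDH2R140W to IDH2R172K. In the same order MUC1 averaged 16.5, 3.06, 4.46, 6.13 and 8.25 TPM. EPCAM was listed at 0 in IDH1R132H, IDH2R140Q and IDH2R140W and averaged 0.18 and 0.03 TPM in Parental and IDH2R172K. KRT5, which basal epithelia carry, averaged at most 0.013 TPM in a group. The part of these markers in the ITGB4 result was not tested.

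ITGB5, which pairs with ITGAV as a vitronectin receptor, read 2.71, 3.67 and 4.72 TPM in Parental and 43.9, 38.7 and 39.4 TPM in IDH1R132H. In IDH2R140Q it read 21.1, 14.1 and 17.0 TPM, in IDH2R140W 7.43, 8.11 and 8.13 TPM, and in IDH2R172K 7.29, 5.91 and 4.92 TPM. Every edited library exceeded every Parental library, in the order IDH1R132H, IDH2R140Q and then the remaining lines, whose values lay close together. The difference was 3.17 ± 0.17 in IDH1R132H and 1.97 ± 0.17 in IDH2R140Q (adjusted p = 7.84e-09 and 9.16e-07). In IDH2R140W it was 0.94 ± 0.17, under the 2-fold limit that a pseudocount of 0.5 (1.03) or the omission of Parental replicate 3 (1.09) brought it past, and in IDH2R172K it was 0.59 ± 0.17.

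The promoter windows of the 4 members that differed most from Parental and had an entry in the RefSeq promoter table (GRCh38.p14, the 250 bases before the start farthest upstream, 5′ to 3′ on the gene's strand) are shown where each gene is described, since DNA methylation, which mutant IDH is known to affect, falls on CpG. No methylation data are used here. Capitals mark matches, on either strand, to the GC box GGGCGG and the ETS core CCGGAA. The window of ITGB5, at chr3:124901419-124901668 on the minus strand, holds 9 CpG, where the median of 35116 promoters is 11 (quartiles 3 and 23).
ITGB5: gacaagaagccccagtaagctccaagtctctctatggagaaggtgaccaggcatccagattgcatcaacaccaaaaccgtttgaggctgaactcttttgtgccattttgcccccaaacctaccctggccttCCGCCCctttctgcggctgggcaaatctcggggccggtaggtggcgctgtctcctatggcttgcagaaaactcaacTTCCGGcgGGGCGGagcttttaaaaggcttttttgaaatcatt
It has 2 GC box matches, a motif found in 42.6% of all promoter windows, and 1 ETS match, found in 14.5%. The GATA letters AGATAA and the RUNX letters TGTGGT, found in 9.17% and 11% of windows, had no match in any of the 4 windows shown.

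ITGB7, the chain that pairs with ITGA4 or ITGAE in gut-homing leukocytes, had its highest values in IDH2R172K. It read 10.3, 12.8 and 9.81 TPM in Parental and 33.6, 32.1 and 33.3 TPM in IDH2R172K, and between 14.1 and 17.4 TPM in the other 9 libraries. The IDH2R172K libraries overlapped none of the others, and the difference from Parental was 1.51 ± 0.11 (adjusted p = 9.40e-08). ITGB7 shares 1886 of its 4481 exonic bases with ZNF740, a gene on the opposite strand, and whether reads were counted by strand is not given in the sources used here. ZNF740 averaged 27.5 ± 4.62 TPM (SD) in Parental and 41.0 ± 5.51 in IDH2R172K. It averaged 42.8 ± 1.31, 42.9 ± 4.36 and 31.6 ± 6.58 TPM in IDH1R132H, IDH2R140Q and IDH2R140W. The part of ZNF740 reads in the ITGB7 values was not tested.

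The main beta chains among the members, ITGB1 and ITGB2, passed the test in none of these comparisons with Parental. ITGB1 read 237, 118 and 177 TPM in Parental, a range that held every library of the edited lines, and its differences ran from -0.08 to 0.27. ITGB2, the partner of the leukocyte alpha chains, averaged 87.4 ± 21.7 TPM (SD, n = 3) in Parental and 77.6 ± 0.78, 58.8 ± 3.99, 46.4 ± 5.45 and 68.3 ± 4.41 in IDH1R132H, IDH2R140Q, IDH2R140W and IDH2R172K. Its difference in IDH2R140W was -0.87 ± 0.15, and without Parental replicate 2 it was -1.09 and past the limit.

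Shares were taken of the summed TPM of the member beta chains in each library. The platelet chain ITGB3, which is not a member, is left out of these sums. ITGB3 averaged 5.83 TPM in Parental and 25.6 to 62.2 TPM in the edited lines. ITGB1 held 62.1% in Parental and 50.1%, 53.9%, 69.3% and 65.2% in the edited lines, IDH1R132H first and IDH2R172K last. ITGB4 and ITGB5 together made up a few percent in Parental (1.24% ± 0.09 and 1.41% ± 0.57, SD, n = 3). In IDH1R132H they made up 13.6% ± 0.19 and 11% ± 0.64, and in IDH2R140Q 15.7% ± 2.38 and 5.79% ± 1.00. ITGB7 held 10.4% ± 0.29 in IDH2R172K against 4.21% ± 1.90 in Parental. The summed beta chain TPM itself averaged 283 in Parental and 370, 300, 244 and 317 in the edited lines in the order above, with a Parental range of 200 to 359 that Parental replicate 2 extends downward. Transcript shares do not give the shares of assembled receptors.

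**Figure D4:**
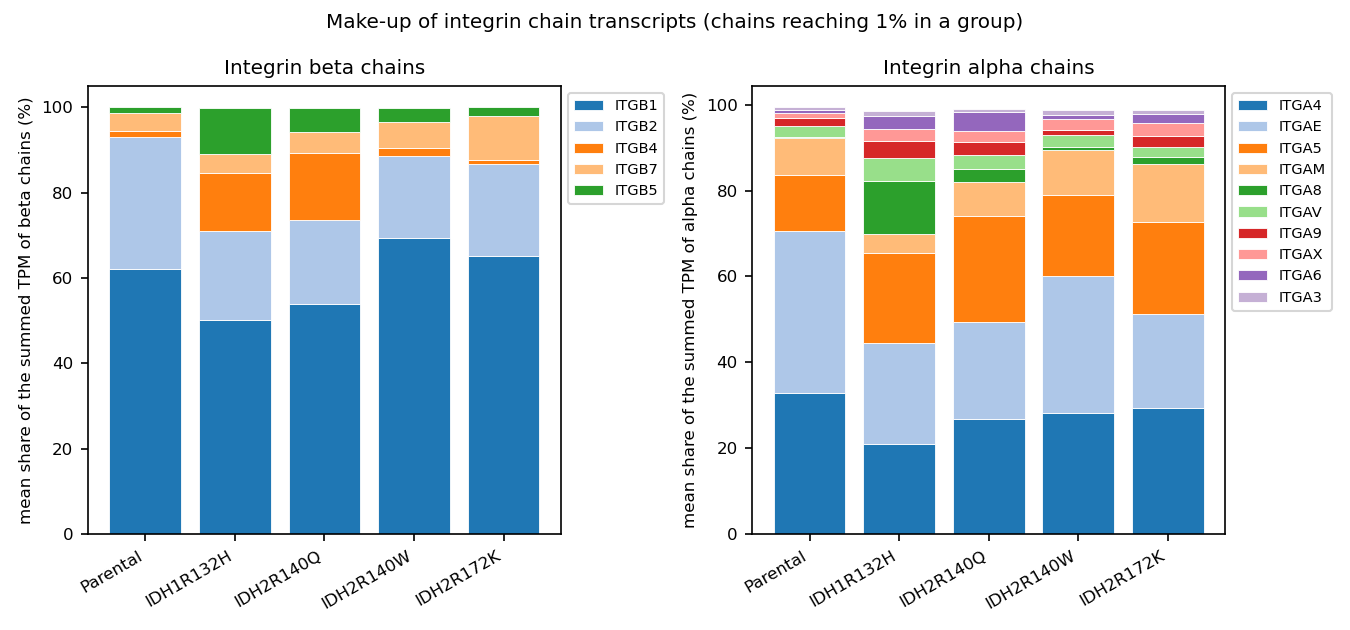
Mean share of each integrin chain in the summed TPM of the member chains of its kind, in percent, by group (n = 3 libraries). Beta chains (left) and alpha chains (right) that reached 1% in a group are shown. The platelet chains ITGA2B and ITGB3 are not members and are left out of the sums. ITGB4 and ITGB5 widen in IDH1R132H (13.6% and 11%). ITGA8 takes 12.3% of the member alpha chain TPM there, against 0.29% in Parental.

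Among the integrin alpha chains, ITGA8 and ITGA6 were higher than in Parental in IDH1R132H, IDH2R140Q and IDH2R172K. ITGA8, a partner of ITGB1 that binds RGD-bearing matrix proteins such as nephronectin, read 0.84, 0.57 and 0.90 TPM in Parental and 30.3, 35.6 and 31.4 TPM in IDH1R132H. It read 6.32, 9.97 and 10.2 TPM in IDH2R140Q and 5.57, 4.61 and 3.80 TPM in IDH2R172K. IDH2R140W, with 1.06, 2.89 and 0.52 TPM, overlapped Parental, while the other edited lines did not overlap Parental or each other. The difference from Parental was 4.24 ± 0.28 in IDH1R132H, 2.45 ± 0.28 in IDH2R140Q and 1.67 ± 0.28 in IDH2R172K (adjusted p = 3.65e-08, 9.24e-06 and 2.84e-04). ITGA8 reached 1 TPM in no Parental library. It thus entered the tests through edited libraries, and its calls against Parental are a description. The promoter window of ITGA8, chr10:15719923-15720172 on the minus strand, holds 19 CpG and 4 GC box matches, several of them overlapping near the start.
ITGA8: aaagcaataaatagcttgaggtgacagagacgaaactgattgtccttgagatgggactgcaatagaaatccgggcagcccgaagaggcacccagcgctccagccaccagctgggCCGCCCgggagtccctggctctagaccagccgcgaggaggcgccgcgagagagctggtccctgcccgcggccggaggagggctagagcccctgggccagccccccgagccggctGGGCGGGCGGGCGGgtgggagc
This is more CpG than in the ITGB5 window and less than the upper quartile of all promoters.

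ITGA6, the partner of ITGB4 and of ITGB1 in laminin receptors, read 2.41, 1.41 and 2.33 TPM in Parental and 11.2, 12.4 and 12.8 TPM in IDH2R140Q. It read 7.35, 7.80 and 8.05 TPM in IDH1R132H, 1.56, 2.85 and 1.38 TPM in IDH2R140W and 7.41, 5.13 and 5.83 TPM in IDH2R172K. IDH2R140Q had the highest libraries, IDH2R140W overlapped Parental, and IDH1R132H overlapped IDH2R172K by 1 library. The differences were 1.53 ± 0.19, 2.12 ± 0.19 and 1.23 ± 0.19 in IDH1R132H, IDH2R140Q and IDH2R172K (adjusted p = 2.21e-05, 1.23e-06 and 1.82e-04). ITGA6 was thus higher in IDH2R172K, where its partner ITGB4 was not: ITGB4 differed by -0.35 ± 0.29 there (adjusted p = 0.361).

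ITGA9, a partner of ITGB1 that binds tenascin-C and osteopontin, averaged 4.67 ± 1.44 TPM in Parental and 10.6 ± 0.83 in IDH1R132H, a difference of 1.06 ± 0.22 (adjusted p = 0.00140). This call was lost without Parental replicate 2 (0.86) and under median-ratio scaling (0.89). In IDH2R140Q, IDH2R140W and IDH2R172K its differences were 0.79, -0.72 and 0.58, none of 2-fold. ITGAX, the alpha chain of the complement receptor of dendritic cells, averaged 3.20 ± 0.55 TPM in Parental and 8.50 ± 0.30 in IDH2R172K, a difference of 1.19 ± 0.21 (adjusted p = 4.38e-04). Its differences in IDH1R132H, IDH2R140Q and IDH2R140W, 0.95, 0.95 and 0.67, were below 2-fold. Those in IDH1R132H and IDH2R140Q passed the limit with a pseudocount of 0.5 (1.04 each) or without Parental replicate 3 (1.02 each). ITGAV, the partner of ITGB5, averaged 6.94 ± 2.07 TPM in Parental and 14.5 ± 1.09 in IDH1R132H, a difference of 0.99 ± 0.24 (adjusted p = 0.00425) that fell just short of the limit.

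The most abundant alpha chains among the members moved less. The platelet chain ITGA2B, which is not a member, stood higher, at 291 TPM on average in Parental and 323 to 449 TPM in the edited lines. ITGA4, which with ITGB1 forms the VCAM1 receptor VLA-4, averaged 86.8 ± 24.0 TPM in Parental and 55.3 to 85.1 TPM in the edited lines, with differences of -0.60 to 0.01. ITGA5, the fibronectin receptor chain, averaged 34.2 ± 6.15 TPM in Parental and 67.7 ± 3.6 in IDH2R140Q, a difference of 0.98 ± 0.13 (adjusted p = 4.11e-05), just under 2-fold. It passed the limit without Parental replicate 1 (1.03) or replicate 3 (1.09). ITGAE, which pairs with ITGB7, averaged 96.7 ± 17.8 TPM in Parental and 61.9 to 66.4 TPM in the edited lines. Its differences of -0.54 to -0.63 had adjusted p of 0.00179 to 0.00941 but were not 2-fold, and Parental replicate 2, at 117 TPM, was its highest library. ITGAM, the complement receptor chain of myeloid cells, averaged 22.5 ± 4.57 TPM in Parental, 11.6 ± 0.44 in IDH1R132H and 38.8 ± 5.43 in IDH2R172K, with differences of -0.89 and 0.77, so the 2 lines stood on opposite sides of Parental. The remaining tested alpha chains, ITGA2, ITGA3, ITGA7, ITGA11 and ITGAL, had means under 4 TPM in every group and passed in no comparison with Parental. At these levels the pseudocount sets the call. With 0.5 in place of 1, ITGA2 passed in IDH1R132H (1.16) and IDH2R140W (1.11) and ITGAL in IDH2R172K (1.20). With 0.1, ITGA2 passed also in IDH2R140Q (1.28) and ITGA3 in IDH1R132H (1.03).

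The cadherins CDH2 and CDH5 were higher than in Parental in IDH1R132H, IDH2R140Q and IDH2R172K. CDH5, the VE-cadherin of endothelial junctions that blood-forming progenitors also carry during development, read 0.92, 0.51 and 0.81 TPM in Parental and 24.5, 24.5 and 24.5 TPM in IDH2R172K. It read 11.8, 12.5 and 12.6 TPM in IDH1R132H, 5.20, 4.79 and 4.60 TPM in IDH2R140Q and 0.88, 0.33 and 0.19 TPM in IDH2R140W. The 3 lines above Parental did not overlap one another, and IDH2R140W overlapped Parental. The differences were 2.94 ± 0.16, 1.75 ± 0.16 and 3.87 ± 0.16 in IDH1R132H, IDH2R140Q and IDH2R172K (adjusted p = 7.08e-09, 1.23e-06 and 6.56e-10), the last being 14.7-fold on this scale. Summed TPM of 10 endothelial markers was 526 to 579 in Parental, 847 to 865 in IDH1R132H, 549 to 594 in IDH2R140Q, 612 to 703 in IDH2R140W and 711 to 768 in IDH2R172K, with 6 or 7 of the 10 at 1 TPM or more in each group. TIE1 and EGFL7 led that sum, ROBO4 was listed at 0 in every group but IDH2R140Q, and VWF averaged at most 0.213 TPM in a group. KDR averaged 8.03, 59.4, 13.7, 8.01 and 29.7 TPM from Parental through IDH1R132H, IDH2R140Q and IDH2R140W to IDH2R172K. In the same order EGFL7 averaged 288, 338, 211, 255 and 206 TPM, and TIE1 218, 399, 264, 315 and 418 TPM. CDH5 reached 1 TPM only in libraries of the 3 higher lines, and so entered the tests through them. Its calls here and below are therefore a description. The part of these markers in the CDH5 result was not tested.

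CDH2, the N-cadherin of mesenchymal and neural cells, read 7.55, 3.78 and 6.89 TPM in Parental, 28.9, 22.2 and 24.4 TPM in IDH1R132H and 30.6, 28.5 and 32.1 TPM in IDH2R140Q. It read 4.57, 7.58 and 3.33 TPM in IDH2R140W and 18.1, 19.2 and 20.6 TPM in IDH2R172K. IDH2R140W overlapped Parental, and the other lines lay above both. The differences were 1.92 ± 0.23, 2.19 ± 0.23 and 1.56 ± 0.23 (adjusted p = 1.65e-05, 5.72e-06 and 1.22e-04). Of 8 fibroblast markers, 0 reached 1 TPM in any group, and their summed TPM was 0.35 to 2.74 over all libraries. The promoter window of CDH2, chr18:28177131-28177380 on the minus strand, holds 17 CpG and 1 GC box match.
CDH2: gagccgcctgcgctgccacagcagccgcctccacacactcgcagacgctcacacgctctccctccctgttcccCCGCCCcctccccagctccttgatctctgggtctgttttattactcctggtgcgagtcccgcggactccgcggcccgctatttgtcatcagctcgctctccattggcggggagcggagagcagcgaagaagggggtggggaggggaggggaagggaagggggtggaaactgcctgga
The CpG count lies between those of ITGB5 and ITGA8. GENCODE release 29 places the start of CDH2 at 28177446, so the whole window lies inside the gene in that annotation.

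**Figure D5:**
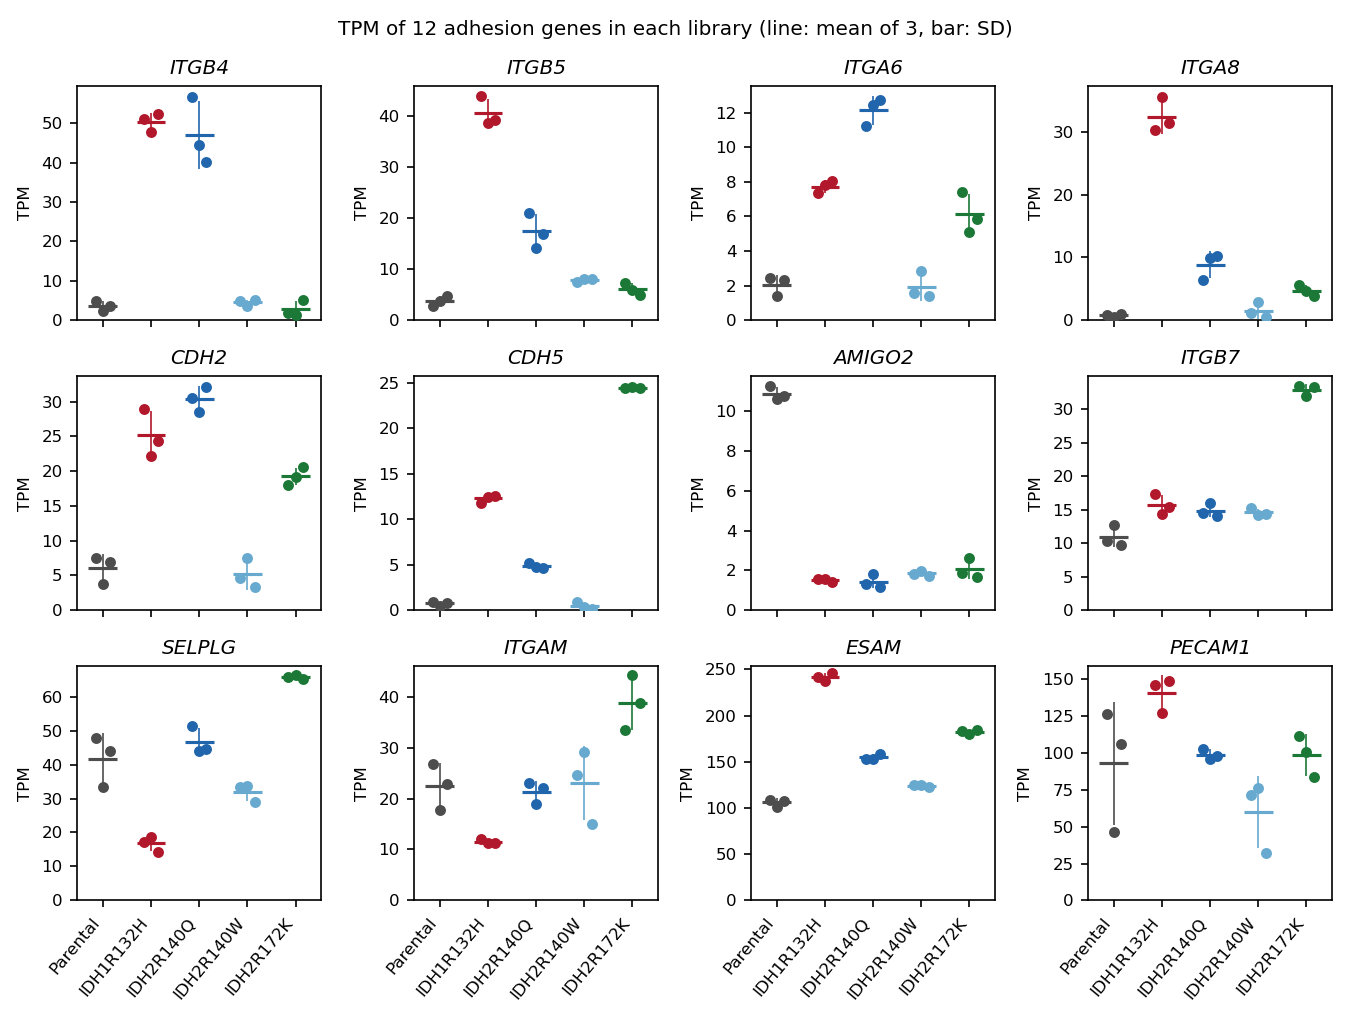
TPM of 12 adhesion genes in each library (points), with the group mean (line) and SD (bar), n = 3 per group, on a linear axis from 0 that differs between panels. ITGB4 is high in IDH1R132H and IDH2R140Q, CDH5 and ITGB7 are highest in IDH2R172K, SELPLG is lowest in IDH1R132H, and AMIGO2 is near 11 TPM in Parental and at most 2.60 TPM elsewhere.

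AMIGO2, a leucine-rich repeat protein that mediates contacts between like cells and supports cell survival, was the one member called against Parental in each of the 4 edited lines. It read 11.3, 10.6 and 10.7 TPM in Parental. The 12 edited libraries lay between 1.19 and 2.60 TPM and overlapped no Parental library. The differences were -2.22, -2.29, -2.06 and -1.97 in IDH1R132H, IDH2R140Q, IDH2R140W and IDH2R172K, each ± 0.15 (SE), with adjusted p of 3.50e-08 to 2.41e-07. Among the 4 edited lines AMIGO2 did not pass the test of differences (adjusted p = 0.200), with 0.32 between the highest and lowest line. AMIGO2 lies head to head with PCED1B on the opposite strand, with 123 of its 3956 exonic bases shared. PCED1B averaged 4.15 ± 0.92 TPM in Parental and 0.55 ± 0.10, 0.41 ± 0.25, 0.85 ± 0.42 and 0.99 ± 0.28 in the edited lines in that order. Both genes of the locus thus read lower in all 4 lines, and without the strand setting the reads of the shared bases cannot be told apart. The promoter window of AMIGO2, chr12:47079960-47080209 on the minus strand, holds 25 CpG, the most of the 4 shown, and 2 GC box matches.
AMIGO2: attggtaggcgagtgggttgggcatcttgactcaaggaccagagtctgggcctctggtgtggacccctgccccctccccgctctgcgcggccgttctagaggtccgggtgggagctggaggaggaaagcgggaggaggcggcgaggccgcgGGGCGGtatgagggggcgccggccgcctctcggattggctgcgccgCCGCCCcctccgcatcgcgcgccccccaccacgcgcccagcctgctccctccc
Its CpG count is above the upper quartile of all promoter windows.

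SELPLG, the P-selectin ligand PSGL-1 of leukocytes, was lower in IDH1R132H. It read 47.9, 33.3 and 43.9 TPM in Parental and 17.3, 18.8 and 14.3 TPM in IDH1R132H, a difference of -1.26 ± 0.13 (adjusted p = 3.32e-06), with no overlap. IDH2R172K stood on the other side, at 65.9, 66.3 and 65.3 TPM, all above Parental, but its difference of 0.66 ± 0.13 was not 2-fold. The averages of 46.6 ± 4.13 TPM in IDH2R140Q and 32.0 ± 2.59 in IDH2R140W differed from Parental by 0.17 and -0.36.

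ESAM was higher in IDH1R132H. It read 109, 101 and 108 TPM in Parental and 242, 238 and 246 TPM in IDH1R132H, a difference of 1.18 ± 0.05 (adjusted p = 5.56e-10) that median-ratio scaling brought just under the limit (0.98). The other lines averaged 155 ± 3.06 TPM (IDH2R140Q), 124 ± 1.29 (IDH2R140W) and 182 ± 2.27 (IDH2R172K), and none of their libraries overlapped Parental, although their differences of 0.54, 0.22 and 0.77 were below 2-fold. ICAM2 averaged 187 ± 8.71 TPM in IDH2R140W and 132 to 149 TPM in the other groups, and ICAM3 ran from 118 ± 6.59 TPM in IDH2R140Q to 205 ± 12.1 in IDH2R172K. Neither differed 2-fold from Parental in any line. Genes on the opposite strand share 869 of the 3243 exonic bases of ICAM2 and 2101 of the 2950 of ICAM3. The part of their reads in these values was not tested. PECAM1 read 127, 46.1 and 106 TPM in Parental, a spread in which Parental replicate 2 was lowest, and passed in no comparison with Parental. Without that library it was lower in IDH2R140W (-1.04). F11R, the tight junction molecule JAM-A, averaged 24.3 ± 7.55 TPM in Parental and 13.4 ± 1.26 in IDH2R140Q, a difference of -0.77 ± 0.20 that became -1.03 without Parental replicate 2. F11R was the sum of 2 rows of the table, and another annotated gene on its strand shares 1853 of its 5066 exonic bases.

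The edited lines, grown alike, also differed from each other. A moderated F test over the 4 lines called 13 of the 28 tested members, with at least 2-fold between the highest and lowest line, where it called 19.3% of all genes. These were ITGA6, ITGA8, ITGA9, ITGAL, ITGAM, ITGAV, ITGB4, ITGB5, ITGB7, CDH2, CDH5, PECAM1 and SELPLG. ITGAL entered the tests only through its 3 IDH2R172K libraries, at 2.76, 1.21 and 1.19 TPM, while no other library exceeded 0.69 TPM, so its calls are a description and support nothing. The largest span was that of CDH5, with 4.15 between IDH2R172K and IDH2R140W (adjusted p = 7.48e-10), followed by ITGB4 with 3.88 and ITGA8 with 3.86. CDH5 entered the tests only through the lines where it was higher than in Parental, so its calls are a description too. Without IDH2R140W replicate 3, PECAM1 and ITGAV no longer passed (0.91 and 0.96), which left 11. PECAM1 was lost also without IDH1R132H replicate 1 or 3 (adjusted p = 0.0586 and 0.0599), and ITGAL, which no group carried above 1.72 TPM on average, without IDH2R140Q replicate 1 or 3 (0.97 each).

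The alleles of IDH2 codon 140 differed in 7 members, all higher in IDH2R140Q than in IDH2R140W, where 4.19% of all genes were higher and 1.5% lower. ITGB4 (3.12 ± 0.29), CDH2 (2.41 ± 0.23), ITGA6 (2.20 ± 0.19), ITGA8 (2.07 ± 0.28), CDH5 (2.03 ± 0.16), ITGA9 (1.51 ± 0.22) and ITGB5 (1.03 ± 0.17) made up this set, with adjusted p of 5.49e-07 to 4.97e-04. Under median-ratio scaling or without IDH2R140Q replicate 1, ITGB5 fell under the limit (0.84 and 0.89). IDH2R140W was also lower than IDH2R172K in 7 members and higher in 0, against 4.42% and 2.44% of all genes. These were CDH5 (-4.15), CDH2 (-1.78), ITGA9 (-1.31), ITGA6 (-1.30), ITGA8 (-1.29), ITGB7 (-1.12) and SELPLG (-1.02), and without IDH2R140W replicate 3 ITGA8 (-0.99) and SELPLG (-0.96) fell short of it, as did SELPLG under median-ratio scaling (-0.92). IDH2R140Q exceeded IDH2R172K in ITGB4 (3.77 ± 0.29) and ITGB5 (1.38 ± 0.17) and was lower in CDH5 (-2.12 ± 0.16), ITGB7 (-1.10 ± 0.11) and ITGAL (-1.02 ± 0.22), against 4.45% and 3.12% of all genes. The ITGAL call was lost without IDH2R140Q replicate 1 or 3 (-0.97 each).

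Against the mean of the 3 IDH2 lines, IDH1R132H was higher in 4 members and lower in 2, against 2.66% and 1.92% of all genes. ITGA8 (2.74 ± 0.23), ITGB4 (2.41 ± 0.24), ITGB5 (2.00 ± 0.14) and CDH5 (1.15 ± 0.13) were higher, and SELPLG (-1.41 ± 0.11) and ITGAM (-1.12 ± 0.16) were lower, with adjusted p of 1.42e-07 to 1.19e-04. Without Parental replicate 2 and IDH2R140W replicate 3, the counts of 4 and 2 here, of 7 for IDH2R140Q against IDH2R140W and of 6 and 1 for the mean of the 4 lines against Parental were as given. The mean does not show that ITGB4 in IDH1R132H differed from IDH2R140Q by 0.11 ± 0.29 (adjusted p = 0.818) and that CDH5 was lower in IDH1R132H than in IDH2R172K by a difference of -0.94 ± 0.16. In comparisons with single IDH2 lines, added after the data were seen, IDH1R132H exceeded IDH2R140Q in ITGA8 (1.79), ITGB5 (1.19) and CDH5 (1.18) and was lower in SELPLG (-1.42), against 2.4% and 3.1% of all genes. It was higher than IDH2R140W in 9 members and lower in 0, against 5.48% and 2.39%. Against IDH2R172K it was higher in ITGA8 (2.57), ITGB4 (3.88) and ITGB5 (2.58) and lower in ITGAM (-1.66), ITGB7 (-1.03) and SELPLG (-1.92), where 4.17% of all genes were higher and 3.32% lower.

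Genes that act with these receptors were read from lists of pathway genes. Among all tested genes, 7.74%, 7.56%, 2.68% and 6.36% were higher and 3.09%, 2.47%, 2.1% and 2.96% lower than Parental in the order IDH1R132H, IDH2R140Q, IDH2R140W and IDH2R172K, with medians of 0.16, 0.23, 0.03 and 0.13. Nothing particular to a list is read from its counts. Of 34 tested genes of integrin activation and adhesion complexes, the counts higher and lower than Parental were 5 and 1, 6 and 1, 2 and 0, and 8 and 1 in that order, with median differences of 0.48, 0.37, 0.09 and 0.38. ZYX, the focal adhesion protein zyxin, averaged 254 ± 41.3 TPM in Parental and 807 ± 7.26 in IDH1R132H, a difference of 1.68 ± 0.10. FERMT1, a kindlin that binds beta chain tails, averaged 3.85 ± 1.00 TPM in Parental and 25.4 ± 3.16 in IDH2R140Q (2.46 ± 0.22), and the docking protein BCAR1 averaged 22.8 ± 2.61 and 5.93 ± 1.11 TPM there (-1.79 ± 0.14). Of 15 tested matrix ligands, 6, 5, 2 and 0 were higher in that order, and 1, LAMA5, was lower in IDH2R172K, with medians of 0.87, 0.83, -0.08 and 0.27. LAMC1, the laminin gamma chain of most laminins that ITGA6 receptors bind, averaged 1.68 ± 0.70 TPM in Parental, 19.4 ± 5.33 in IDH1R132H and 15.2 ± 2.04 in IDH2R140Q, and 1.11 ± 0.68 and 0.68 ± 0.20 in IDH2R140W and IDH2R172K. The lines with LAMC1 high were thus those with ITGB4 high, a description over 5 group means.

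Of 20 tested other adhesion receptors and counter-receptors, 5, 5, 1 and 5 were higher in the edited lines in the same order and 0 were lower, with medians of 0.39, 0.68, 0.18 and 0.53, to be set beside the shares and medians of all genes given above. SELP, the P-selectin that SELPLG binds, averaged 2.00 ± 0.55 TPM in Parental and 24.0 ± 2.44, 23.1 ± 1.11, 3.30 ± 0.77 and 47.7 ± 5.43 in the edited lines in the order IDH1R132H, IDH2R140Q, IDH2R140W and IDH2R172K. The platelet beta chain ITGB3, which also pairs with ITGAV, averaged 5.83 ± 1.98 TPM in Parental and 25.6 to 62.2 TPM in the edited lines. Summed TPM of 9 megakaryocyte markers, ITGB3 among them, was 347 to 396 in Parental and 499 to 654 in the edited libraries, and GP6 was listed at 0 in every group. Of 12 tested cadherin, catenin and junction scaffold genes, 2 were higher in IDH1R132H, 2 in IDH2R140Q, 1 in IDH2R140W with 1 lower, and 1 in IDH2R172K, with CDH26 called in the 3 lines that also had CDH2 and CDH5 higher, and the list's medians were 0.40, 0.41, 0.02 and 0.09. Of 11 tested genes of selectin ligand synthesis, 0, 2, 1 and 1 were higher in the 4 lines in that order, GCNT1 in the last 3, with medians of 0.23, 0.25, 0.50 and 0.12. Of 12 integrin partners such as tetraspanins, 2, 0, 0 and 1 were higher, with CD53 lower in IDH2R172K and medians of 0.31, 0.20, 0.15 and 0.11. Summed TPM of 11 erythroid markers was 2562 to 3510 in Parental against 364 to 395 in IDH1R132H, 486 to 494 in IDH2R140Q, 869 to 1088 in IDH2R140W and 1767 to 1881 in IDH2R172K. That of 6 mast cell and basophil markers was 75.8 to 91.3 in Parental and 320 to 692 in the edited libraries. The part of either list in the differences from Parental above was not tested.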

How the data were processed

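Poly(A) RNA of 15 TF-1 libraries was measured, with groups taken from the genotype labels. The authors deposited 1 table of TPM values, 1 column a library. STAR 2.7.3, HTSeq, RSEM, DESeq2 and build hg38 appear, without roles, among the submitters' processing notes. For the annotation release and the strand setting nothing is given in the sources used here. TPM divides by transcript length and library total, so a few abundant genes can shift all others, and depth is lost.

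Of 63568 rows, those sharing a symbol were summed, which left 56624 symbols, and 6 ambiguous date-like rows were left out. Genes at 1 TPM or more in at least 3 libraries, 14881 in all, were fitted as log2(TPM + 1) with limma 3.58.1 in R 4.3.3, with a mean for each group and a variance trend on intensity. Positions came from GENCODE release 29. The script was tested on simulated data. Members and gene lists were chosen with earlier results of these data known. Members called in a comparison or at 10 TPM or more, and at most 3 called genes per list and comparison by adjusted p, could be named. Among the replicate numbers, 1 of 30 same-number pairs correlated above 0.1 in their deviations from group means, and the main fit used no pairing. Parental replicate 2 and IDH2R140W replicate 3 correlated at 0.5. Deviations within a group of 3 depend on each other, so this check does not settle whether a number stands for a batch. Alternatives were other pseudocounts, filters, scalings and variance models, a replicate block, symbols on 1 row and leaving out libraries.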

Additional observations from a re-analysis of the deposited data

Results flagged for a closer look

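ITGA9, ITGAM and SELPLG stood on opposite sides of Parental in different edited lines, with the difference between the lines tested in the same limma fit. Comparisons of IDH1R132H with single IDH2 lines were chosen after the data were seen. ITGA9 was higher in IDH1R132H than in IDH2R140W by 1.78 (adjusted p = 2.33e-05), where the lines differed from Parental by 1.06 and -0.72. The same gene was higher in IDH2R140Q than in IDH2R140W by 1.51 (adjusted p = 1.42e-04), with 0.79 and -0.72 against Parental. IDH2R140W was also lower than IDH2R172K in ITGA9, by a difference of -1.31 (adjusted p = 4.27e-04), with -0.72 and 0.58 against Parental (adjusted p = 0.0268 and 0.0490). Over the alternative runs these adjusted p against Parental rose as far as 0.166 and 0.196. In ITGAM the difference of IDH1R132H from IDH2R172K was -1.66 (adjusted p = 2.30e-05), with -0.89 and 0.77 against Parental. In SELPLG it was -1.92 (adjusted p = 7.75e-08), with -1.26 and 0.66 against Parental. Of the single-line differences from Parental among these, 1.06 for ITGA9 and -1.26 for SELPLG reached 2-fold.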

How the results depend on the processing

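Of 73 called member differences, 63 kept their call in every alternative run, and over all 1469 recomputed values 1434 kept it, 35 lost it and 0 reversed. The 1 reversal was of an uncalled value, ICAM2 in the mean of the 4 edited lines against Parental, at -0.008 (adjusted p = 0.939) under median-ratio scaling. The count for IDH2R140W against Parental, 1 as reported, was 3 with a pseudocount of 0.5 and 3 with 0.1, where ITGA2 and ITGB5 were added, and 1 to 3 when leaving out 1 library. ITGB2 and PECAM1 were added without Parental replicate 2, and ITGB5 without Parental replicate 3. In IDH1R132H, 8 higher and 2 lower became 6 and 3 under median-ratio scaling and 7 and 3 under quantile normalisation, with ITGA9 (0.89 and 0.85) and, in the first, ESAM (0.98) lost and ITGAM (-1.07 and -1.08) gained. In IDH2R140Q, 6 and 1 became 6 and 2 under both, with F11R gained (-1.02 and -1.07). Library quality weights removed ITGA9 in IDH1R132H (0.77), ITGAL in IDH2R140Q against IDH2R172K (-0.95), ITGA8 (-0.87) and SELPLG (-0.97) in IDH2R140W against IDH2R172K and, among the 4 lines, ITGAL (0.95), ITGAV (0.96) and PECAM1 (just under 1), and added F11R in IDH2R140Q (-1.09). Over all genes, a pseudocount of 0.1 gave 1115 calls in place of 711 for IDH2R140W against Parental, 1608 in place of 835 for the mean of the 4 lines, 1178 in place of 682 for IDH1R132H against the IDH2 lines and 1298 in place of 847 for IDH2R140Q against IDH2R140W. With the replicate number as a block, 10 members were called in IDH1R132H against Parental, and the counts of members called in the other comparisons were also as reported. The correlation of same-number libraries ran from -0.29 to 0.22, and 7 of 15 libraries correlated best with their own number. A fit of only the compared libraries does not apply to the mean of the 4 lines, which uses all 15. The cause of these changes was not tested. Unknown depth limits statements on members under 1 TPM. The missing strand setting limits those on members that share exonic bases with a gene on the opposite strand, AMIGO2, ITGB7, ICAM2 and ICAM3 among them. F11R shares bases with a gene on its own strand, which a strand setting would not separate.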
